A study of Homo sapiens with 8 samples.

Results

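The genes described here are 10 members of the NOTCH pathway in T-cell leukaemia: the receptors NOTCH1 and NOTCH3, and the target genes HES1, HES4, DTX1, NRARP, MYC, HEY1, IGF1R and PTCRA. They were chosen by gene symbol, and all 10 were found among the 61228 symbols of the deposited count table. RNA sequencing was done on 8 clones of RPMI-8402, a long-established human T-cell leukaemia line. The knockout group holds 4 clones in which NKX2-1 was targeted (C12, C15, S04 and S36), and the wild-type group holds 4 clones (WT10, WT13, WT28 and WT30). The labels say that nothing was added to the cells, and each sample is 1 clone, so a value stands for that clone and not for the line at large. The kind of edit and the meaning of the letters C and S were not given in the sources used here. Of the 10 genes, 8 had enough counts to be tested. HEY1 and NRARP did not.

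NOTCH receptors are cut when a ligand on a neighbouring cell binds them. The freed intracellular part enters the nucleus, joins the DNA-binding protein RBPJ and a Mastermind coactivator, and switches on target genes. NOTCH1 drives early thymocytes into the T-cell lineage, and activating mutations of it are among the most common lesions of T-cell leukaemia. Among the targets, HES1, HES4 and HEY1 encode transcriptional repressors of the basic helix-loop-helix class. NRARP and DTX1 encode proteins that act back on NOTCH signalling. MYC drives growth, IGF1R is a growth factor receptor, and PTCRA encodes the invariant chain of the pre-T-cell receptor.

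Libraries held 18453947 to 22916424 counts in wild-type clones, 25423215 in C12, 15340134 in S04, 12344549 in S36 and 2730285 in C15. Levels are given as CPM, that is counts relative to library size with TMM factors applied, and intervals on single values are 95% exact Poisson intervals that cover counting error only. C15 was the shallowest library, with 21.2% of counts from mitochondrial transcripts against 12.9% to 15.1% in wild-type clones. Reads of the targeted gene, NKX2-1, ran from 53.5 to 63.1 CPM over the wild-type group. C15 (11.3 CPM) and S36 (33.3 CPM) lay below that range and C12 (71.9 CPM) and S04 (83.5 CPM) above it, so the mRNA level does not check the labels, and a direction given below is between clones labelled knockout and wild type. All 9 T-lineage markers, led by CD3G, were at 1 CPM or more in every clone. They summed to 1859 to 2273 CPM in wild-type and 1795 to 2200 CPM in knockout clones. Of the 9, 3 had fold changes above 0 and 6 below. CD5 (-0.76 on the log2 scale, edgeR adjusted p = 0.138) and CD7 (-1.19, edgeR adjusted p = 0.152) were lower in every knockout than in every wild-type clone. Among all tested genes 5.62% were. Markers of myeloid cells summed to at most 1.87 CPM and erythroid and megakaryocyte markers to at most 0.367 CPM. B-cell markers, led by CD79B, summed to at most 16.9 CPM. Fibroblast and epithelial markers reached 20.1 CPM, led by COL1A1, and COL1A2, PDGFRA and EPCAM had no counts.

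RBPJ binds DNA with the core letters TGGGAA, and RefSeq promoter windows (250 bases before to 50 after the start, GRCh38.p14) were matched for 7 of the 10 genes. Both strands were searched for TGGGAA, and HES1 and HES4 held it, that is 2 of 7 windows, against 24.0% of 34943 promoter windows of the same length. Their 150 bases before the start are shown because these were the only matched members with the core. In C15, S04 and S36, but not in C12, HES1 was lower relative to HES4 than in wild-type clones. Capitals mark the core. HES1 is read from chr3:194135998-194136147 on the plus strand and HES4 from chr1:1000098-1000247 on the minus strand.
HES1: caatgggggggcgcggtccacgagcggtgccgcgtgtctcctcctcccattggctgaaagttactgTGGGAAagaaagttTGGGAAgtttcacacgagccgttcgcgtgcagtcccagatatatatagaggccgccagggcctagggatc
HES4: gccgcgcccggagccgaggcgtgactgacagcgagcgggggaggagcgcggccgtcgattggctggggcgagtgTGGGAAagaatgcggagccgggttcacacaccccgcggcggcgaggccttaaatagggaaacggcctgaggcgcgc

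HES1 held the core at 84 and 70 bases before its start, and HES4 held it at 76 bases. At least 2 copies were present in 3.79% of all windows. The longest stretch holding the core that both sequences share is the 12 bases tgTGGGAAagaa. The NKX2-1 core CAAGTG (in 11.5% of all windows) and the RUNX core TGTGGT (13.1%), on either strand, were in none of the 7 windows. A match is a description of letters and does not show binding, and a window without a match says nothing of the factor.

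No NOTCH receptor or target passed the test between knockout and wild-type clones. With edgeR's quasi-likelihood test and adjustment over 14243 genes, 0 of 8 tested members had an adjusted p under 0.05, against 0.316% of all tested genes. At an unadjusted p under 0.05 there was 1 of 8 (HES4), against 15.5% of tested genes. By DESeq2 1 passed (HES4, where 3.66% of genes did), and by limma-voom 0. In each of the 8 genes the knockout and wild-type clones overlapped, while 10.1% of all tested genes had groups that did not overlap. The median log2 fold change over the 8 was -0.13, with 3 above 0 and 5 below, and over all tested genes it was 0.020. In bulk RNA, fewer cells that express a gene and less of its RNA per cell cannot be told apart.

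**Figure D1:**
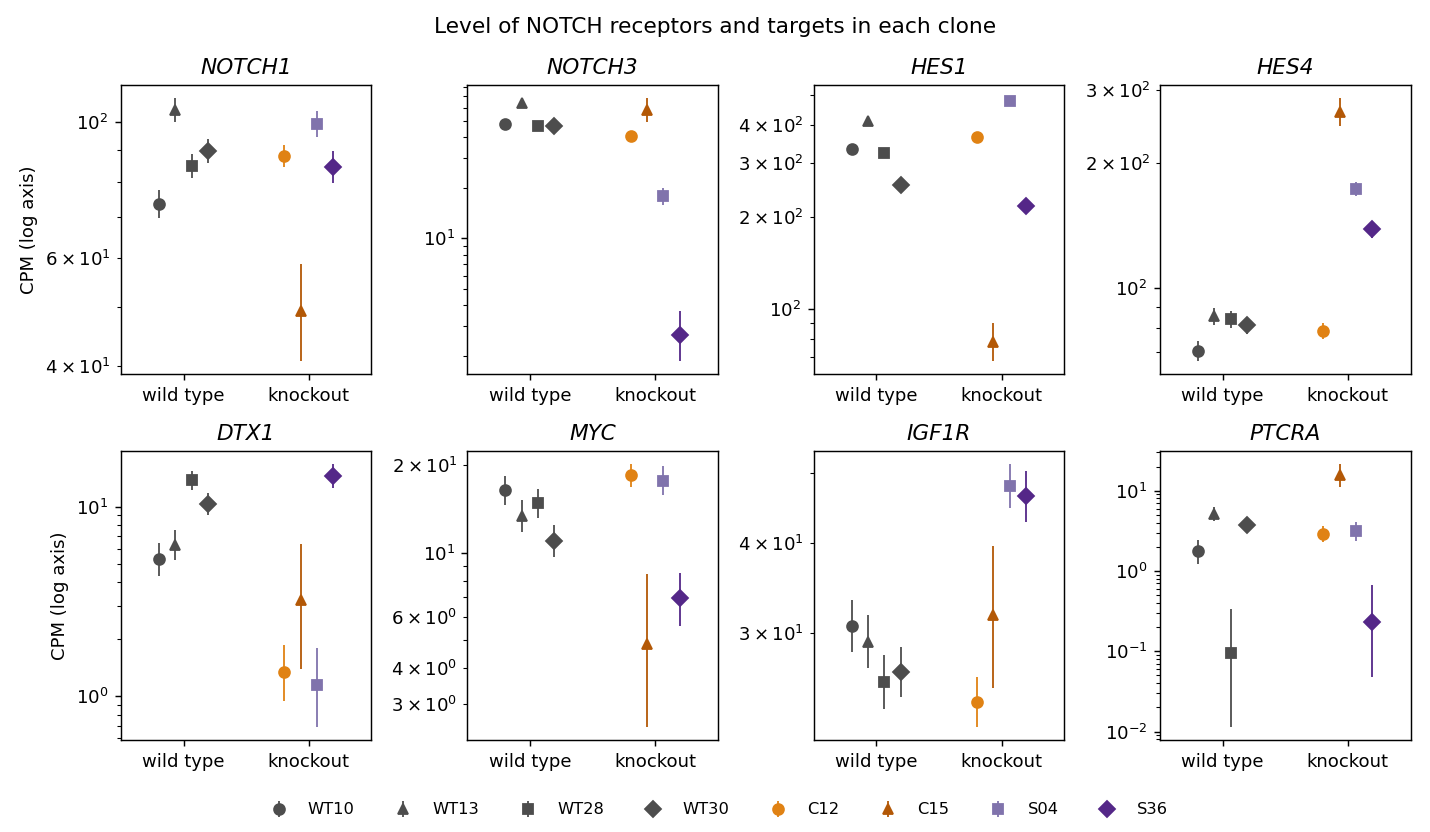
Level of each tested gene in CPM on a log axis, 1 point for each clone with its 95% exact Poisson interval, wild-type clones in grey and knockout clones in colour. HES4 lies above the wild-type clones in C15, S04 and S36, NOTCH3 lies below them in C12, S04 and S36, and PTCRA is near 0 in WT28 and S36.

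In wild-type clones the levels per kilobase of principal transcript (CPM per kb, median of 4 clones) put HES1 first at 208, then HES4 at 91.8. MYC followed at 10.3, over a transcript model of only 1365 bases, and NOTCH1 at 9.38, and their ranges overlapped (8.05 to 12.02 and 7.91 to 11.3). NOTCH3 was at 5.47, PTCRA at 2.56, DTX1 at 2.40 and IGF1R at 2.32, and the ranges of the last 3 also overlapped. HEY1 and NRARP were last, at medians of 0.00966 and 0. HES1, HES4, NOTCH1 and NOTCH3 did not overlap with each other on this scale.

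NOTCH1, the receptor gene on chromosome 9 (136494433 to 136545786, minus strand), was at 73.6, 104.8, 84.9 and 89.7 CPM in WT10, WT13, WT28 and WT30. Knockout clones stood at 88.2 CPM in C12, 49.2 in C15 (122 counts), then 99.3 in S04 and 84.7 in S36. C12, S04 and S36 lay inside the wild-type range, and C15 lay below it. NOTCH1 differed by -0.12 on the log2 scale, knockout minus wild type (SE 0.20, edgeR adjusted p = 0.815), and without C15 the sign turned (0.034).

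The genes around NOTCH1 stood higher, as a median, in all knockout clones. Over 141 tested genes within 10 Mb, the median log2 difference to the mean of wild type was 0.16 for C12, 0.46 for C15, 0.27 for S04 and 0.47 for S36. Wild-type clones had medians of -0.041 to 0.034. NOTCH1 itself differed from the wild-type mean by 0.010, -0.83, 0.18 and -0.048 in the knockout clones, taken in the same order. Each value lay below the median of the neighbours, but wild-type clones also differed from theirs, by -0.21 (WT10) to 0.26 (WT13). The distance for C12 (-0.15) and for S04 (-0.083) was inside that wild-type range. NOTCH1 fell below the range only in S36 (-0.52) and C15 (-1.29, from 122 counts). Set against its neighbours, the mean difference between knockout and wild-type clones was -0.51 on the log2 scale, compared with -0.17 without that step, and an exact two-sided permutation test gave p = 0.114 (the smallest possible p is 0.0286). The antisense gene AL592301.1 overlaps NOTCH1, and with strand use in counting not given in the sources used here, reads from the opposite strand cannot be told apart from NOTCH1 reads.

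NOTCH3, the other receptor gene and itself a NOTCH1 target, lies on chromosome 19 (15159038 to 15200981, minus strand). It was at 48.2, 63.6, 46.5 and 46.7 CPM in WT10, WT13, WT28 and WT30. In C12 it was at 40.5 CPM and in C15 at 58.0, while S04 stood at 17.8 CPM and S36 at 2.67 (35 counts, interval 1.86 to 3.71). C15 lay inside the wild-type range, C12 just below it, and the S-named clones far below. Relative to the wild-type mean, S04 held 0.347 and S36 held 0.0521 of the NOTCH3 level. Genes within 10 Mb had medians of 0.077 in S04 and 0.043 in S36, so the neighbours did not share the lower level.

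Over all knockout clones NOTCH3 differed by -0.85 on the log2 scale (SE 0.61, edgeR adjusted p = 0.542), with -0.45 without S36 and -1.32 without C15. With the S-named clones alone against wild type it fell by 2.32 (SE 0.58, edgeR adjusted p = 0.0333), where 14.5% of tested genes passed. C-named clones stood above S-named clones by 2.23 (SE 0.63, edgeR adjusted p = 0.128), and this difference passed by DESeq2 (2.27, adjusted p = 0.00396). Without S04 it was 4.17, but S36 is then the lone S-named clone and its spread is taken from the other groups. Without S36 it was 1.44, and the adjusted p over all alternatives ran from 4.3e-13 to 0.267. Per kilobase, the ratio of NOTCH1 to NOTCH3 was 1.42 to 1.79 in wild-type clones, 2.03 in C12, 0.789 in C15, then 5.20 in S04 and 29.5 in S36. Its mean log2 value differed by 1.30 between knockout and wild-type clones (exact two-sided permutation p = 0.314).

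**Figure D2:**
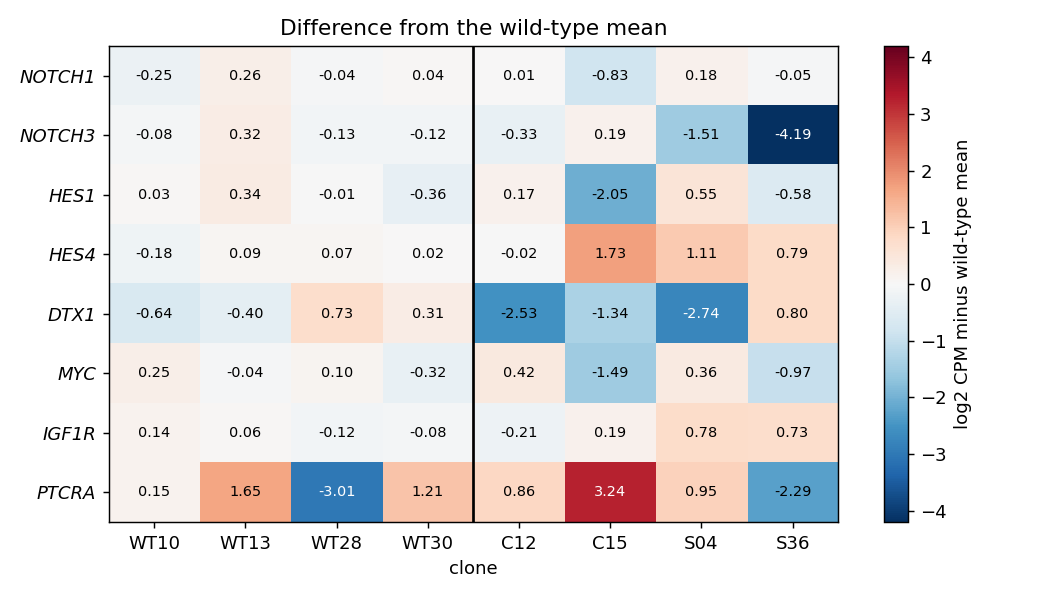
Difference of each clone's log2 CPM from the mean of the wild-type clones, with genes in rows and clones in columns and the wild-type clones left of the line. The lowest value is NOTCH3 in S36 at -4.19 and the highest is PTCRA in C15 at 3.24, and within a knockout clone some targets are above and others below wild type.

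HES1, the classical NOTCH effector and a repressor of differentiation genes, lies on chromosome 3 (194136145 to 194138732). It was among the higher genes of these cells, above 97.0% of tested genes in wild-type CPM. Wild-type clones held 333.0, 410.5, 322.7 and 254.0 CPM. Knockout clones held 364.9 CPM in C12, 78.6 in C15 (195 counts, interval 67.9 to 90.4), then 477.1 in S04 and 217.4 in S36. C15 and S36 lay below every wild-type clone, S04 above them, and C12 inside their range. HES1 differed by -0.21 on the log2 scale (SE 0.41, edgeR adjusted p = 0.847), and without C15 the sign turned (0.092). C-named minus S-named clones was -0.63 (SE 0.58, edgeR adjusted p = 0.627), or 0.061 without C15 and 0.059 without S04. Without C12 it was -2.15 (edgeR adjusted p = 0.0439, where 5.14% of genes passed), but C15 is then the lone C-named clone, the shallowest library, and is assumed to vary like the other groups.

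HES4, a relative of HES1 that rodents lack, lies on chromosome 1 (998962 to 1000172, minus strand). Wild-type clones were close together at 70.4, 85.3, 84.0 and 81.1 CPM. C12 was inside that range at 78.7 CPM, whereas C15 stood at 265.2 CPM (658 counts), S04 at 173.0 and S36 at 138.4. Relative to the wild-type mean this was 3.31 times in C15, 2.16 times in S04 and 1.72 times in S36. Genes within 10 Mb had medians between -0.082 and 0.10 on the log2 scale in the knockout clones.

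HES4 had the smallest p of the members between knockout and wild type, with a difference of 1.02 on the log2 scale (SE 0.29, edgeR unadjusted p = 0.00499, adjusted p = 0.157). The exact two-sided permutation p was 0.114. It passed without C12 (1.25, edgeR adjusted p = 0.0203, where 3.13% of genes passed) and by DESeq2 (1.03, adjusted p = 0.0307). It also passed with no low-count filter (0.95, edgeR adjusted p = 0.00218), where 581 of 31332 genes did. With S-named clones alone it passed too (0.94, edgeR adjusted p = 0.00559), where 14.5% of tested genes did. Without C15, the shallowest library and the highest in HES4, the difference was 0.69 (edgeR adjusted p = 0.143). Over all alternatives the adjusted p ran from 0.00218 to 0.393. C-named and S-named clones differed by 0.12 (SE 0.43, edgeR adjusted p = 0.918).

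HES1 and HES4 are both NOTCH targets with the RBPJ core before their start. HES1 was lower relative to HES4 than in wild-type clones in C15, S04 and S36, but not in C12. In S04 both genes lay above every wild-type clone. Per kilobase the ratio of HES1 to HES4 was 1.78 to 2.74 in wild-type clones and 2.64 in C12. It was 1.57 in S04, 0.895 in S36 and 0.169 in C15, all below the wild-type range. The mean log2 ratio differed by -1.38 between knockout and wild-type clones, and an exact two-sided permutation test gave p = 0.114.

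DTX1, which encodes a ubiquitin ligase of the Deltex family, lies on chromosome 12 (113056709 to 113098028). Wild-type clones ranged widely, at 5.31, 6.29, 13.8 and 10.3 CPM. C12 was at 1.35 CPM (35 counts), C15 at 3.22 (8 counts, interval 1.39 to 6.35), S04 at 1.15 (19 counts) and S36 at 14.6. C12, C15 and S04 lay below every wild-type clone, though the C15 interval reaches into their range, and S36 lay above them all. DTX1 differed by -0.80 on the log2 scale (SE 0.71, edgeR adjusted p = 0.630), by -2.56 without S36 (edgeR adjusted p = 0.0743), by -0.44 without C12, by -0.42 without S04 and by -0.51 without WT28. C-named clones differed from S-named clones by -2.09 (SE 1.06, edgeR adjusted p = 0.352), which turned to 0.60 without S36.

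NRARP, whose product binds the NOTCH transcription complex and limits it, had 1 count in WT30 and 0 in each other clone. It lies on chromosome 9 (137300482 to 137302251), whose tested genes stood higher, as a median, in all knockout clones, as given for NOTCH1. Where nothing was counted, up to 3 counts remain possible, that is 0.133 to 0.159 CPM in wild-type clones, 0.116 in C12, 0.181 in S04, 0.229 in S36 and 1.21 in C15. NRARP was thus not detectable above these limits in the clones where HES1 was at 78.6 to 477.1 CPM.

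HEY1, a further repressor gene on chromosome 8 (79764010 to 79767863), had 9 counts in S04, which is 0.542 CPM (interval 0.248 to 1.03). WT28, WT30, C12 and S36 held 1 count each, and WT10, WT13 and C15 held 0. The S04 value lay above the floor in every wild-type clone, but it was too low to be tested.

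MYC, on chromosome 8 (127735434 to 127741434), is reached by NOTCH1 through a distant enhancer. Wild-type clones held 16.4, 13.4, 14.8 and 10.99 CPM. C12 was at 18.5 CPM and S04 at 17.7, while S36 was at 6.94 (91 counts) and C15 at 4.84 (12 counts, interval 2.50 to 8.45). C12 and S04 lay above every wild-type clone and C15 and S36 below. C15 and S36 were also the lowest clones for HES1, and S04 was the highest for HES1. MYC differed by -0.15 on the log2 scale (SE 0.36, edgeR adjusted p = 0.885), and the sign turned without C15 (0.051) and without S36 (0.073).

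Around MYC, 41 tested genes within 10 Mb had a median log2 difference of -0.45 in S36, -0.19 in C15, -0.087 in S04 and 0.061 in C12. MYC minus that median was -0.52 in S36 and -1.30 in C15. MYCN, a MYC paralogue on another chromosome, was at 33.9 to 55.5 CPM in wild-type clones, 42.2 in C12, 11.7 in C15, then 79.2 in S04 and 79.0 in S36. It was chosen after its values were seen, and knockout minus wild type was 0.40 on the log2 scale (SE 0.42, edgeR adjusted p = 0.694).

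IGF1R, a receptor tyrosine kinase gene, lies on chromosome 15 (98648539 to 98964530). Wild-type clones held 30.8, 29.2, 25.7 and 26.5 CPM, C12 held 24.1 and C15 held 31.8 (79 counts, interval 25.2 to 39.7). The S-named clones stood apart at 48.0 CPM in S04 and 46.5 in S36, which is 1.71 and 1.66 times the wild-type mean. Genes within 10 Mb had medians of -0.0030 and 0.048 there. Over all knockout clones IGF1R differed by 0.43 on the log2 scale (SE 0.22, edgeR adjusted p = 0.373). With S-named clones alone IGF1R rose by 0.74 (SE 0.13, edgeR adjusted p = 0.0116), where 14.5% of tested genes passed.

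C-named clones lay below S-named clones in IGF1R by -0.78 (SE 0.20, edgeR unadjusted p = 0.00313, adjusted p = 0.102), and this passed by DESeq2 (-0.79, adjusted p = 0.0246). LUNAR1, a NOTCH-driven long non-coding RNA named for its link to IGF1R and chosen here after its values were seen, was at 10.6 to 15.8 CPM in wild-type clones. It was at 14.5 CPM in C12, 11.99 in S04 and 12.7 in S36, inside that range, and at 18.5 CPM in C15, above it. The antisense genes AC036108.1 and AC069029.1 overlap IGF1R.

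PTCRA, on chromosome 6 (42915989 to 42925835), varied more among wild-type clones than nearly any other gene. It was at 1.75 CPM in WT10, 5.13 in WT13, 0.0942 in WT28 (2 counts, interval 0.0114 to 0.340) and 3.77 in WT30. In knockout clones it was at 2.93 CPM in C12, 15.7 in C15 (39 counts, interval 11.2 to 21.5), then 3.13 in S04 and 0.229 in S36 (3 counts). WT28 and S36 were near the floor, and C15 stood above all other clones. The SD of log2 CPM among wild-type clones was 2.10, and 4 of 14243 tested genes had a larger one. PTCRA differed by 0.74 on the log2 scale (SE 1.03, edgeR adjusted p = 0.774), and without C15 the sign turned (-0.33).

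The spread among knockout clones exceeded that among wild-type clones for each tested member. The SD of log2 CPM went from 0.22 in wild-type to 1.96 in knockout clones for NOTCH3, 0.13 to 0.73 for HES4, 0.28 to 1.15 for HES1, 0.24 to 0.96 for MYC and 0.12 to 0.47 for IGF1R. For NOTCH1 it went from 0.21 to 0.45, for DTX1 from 0.63 to 1.62, and for PTCRA from 2.10 to 2.27. The median ratio of these SDs over all tested genes was 2.54. NOTCH3, HES4, HES1, MYC, IGF1R and DTX1 had ratios of 8.995, 5.77, 4.05, 3.93, 3.95 and 2.58, while NOTCH1 (2.14) and PTCRA (1.08) lay below that median. Depth differed among knockout libraries and not much among wild-type libraries, and its part in these spreads was not tested.

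Each knockout clone had its own set of members outside the wild-type range. C12 had MYC above and NOTCH3, DTX1 and IGF1R below. C15 had HES4, IGF1R and PTCRA above and NOTCH1, HES1, DTX1 and MYC below. S04 had HES1, HES4, MYC and IGF1R above and NOTCH3 and DTX1 below, and S36 had HES4, DTX1 and IGF1R above and NOTCH3, HES1 and MYC below. Among all tested genes, 24.9% in C12, 35.3% in C15, then 37.1% in S04 and 36.7% in S36 lay above every wild-type clone, and 23.8%, 41.9%, 36.8% and 36.5% lay below.

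**Figure D3:**
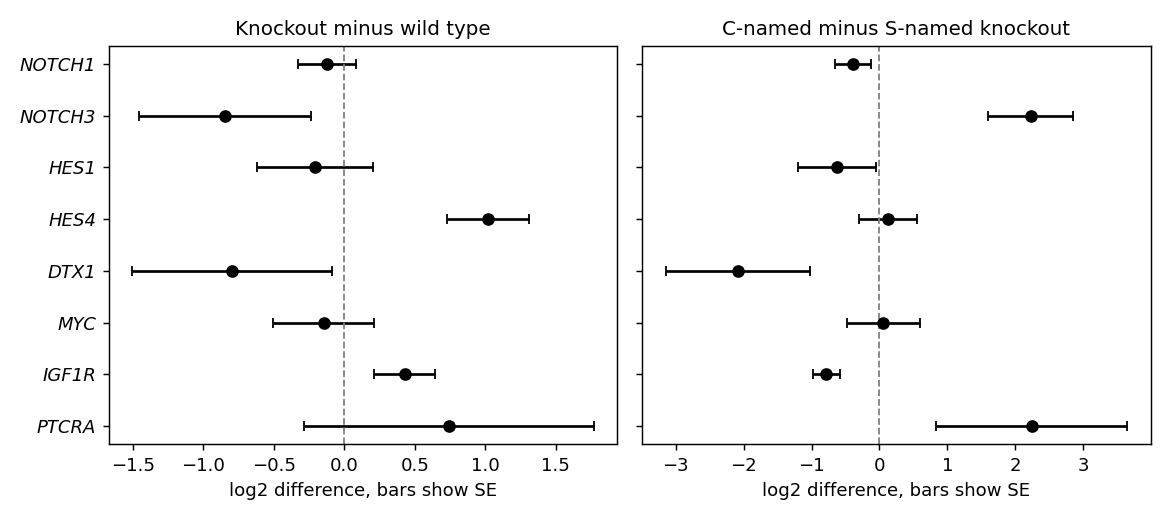
Log2 difference of each tested gene with an SE derived from edgeR's test, knockout minus wild type on the left and C-named minus S-named clones on the right. HES4 is farthest above 0 on the left at 1.02, and on the right NOTCH3 (2.23) and IGF1R (-0.78) are far from 0 relative to their SE, though none passed after adjustment.

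Within the knockout group, C-named against S-named, 0 of 8 members passed by edgeR, against 0.358% of tested genes. At an unadjusted p under 0.05 there were 2 of 8 (NOTCH3 and IGF1R), against 17.1% of tested genes. By DESeq2 the same 2 genes passed, where 4.57% of genes did, and by limma-voom 0. Each letter has 2 clones. The other differences were -0.40 for NOTCH1 (SE 0.27), -0.63 for HES1 (SE 0.58), 0.055 for MYC (SE 0.54) and 2.24 for PTCRA (SE 1.41), with edgeR adjusted p of 0.483, 0.627, 0.974 and 0.453. Leaving out a clone moved NOTCH1 from -0.91 (without C12) to -0.071 (without C15), and PTCRA from 0.75 (without C15) to 5.03 (without S04). With S-named clones alone against wild type, 3 of 8 members passed (HES4, IGF1R and NOTCH3), where 14.5% of tested genes did. With C-named clones alone 0 of 8 passed by edgeR, where 0.0395% of tested genes passed, and 2 of 8 had an unadjusted p under 0.05, where 10.3% of tested genes did.

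Each member was also set beside its chromosomal neighbours, since several chromosomes or stretches of them were shifted in knockout clones. The neighbours of HES1 were at 0.31 in S36, where HES1 was at -0.58. Those of DTX1 lay between -0.14 and -0.0073, those of PTCRA between -0.12 and 0.029, and those of IGF1R between -0.041 and 0.048. Subtracting the neighbours' median changed the sign of none of the 8 mean differences, and the exact permutation p ran from 0.0857 (HES4) to 0.629 (MYC and PTCRA).

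**Figure D4:**
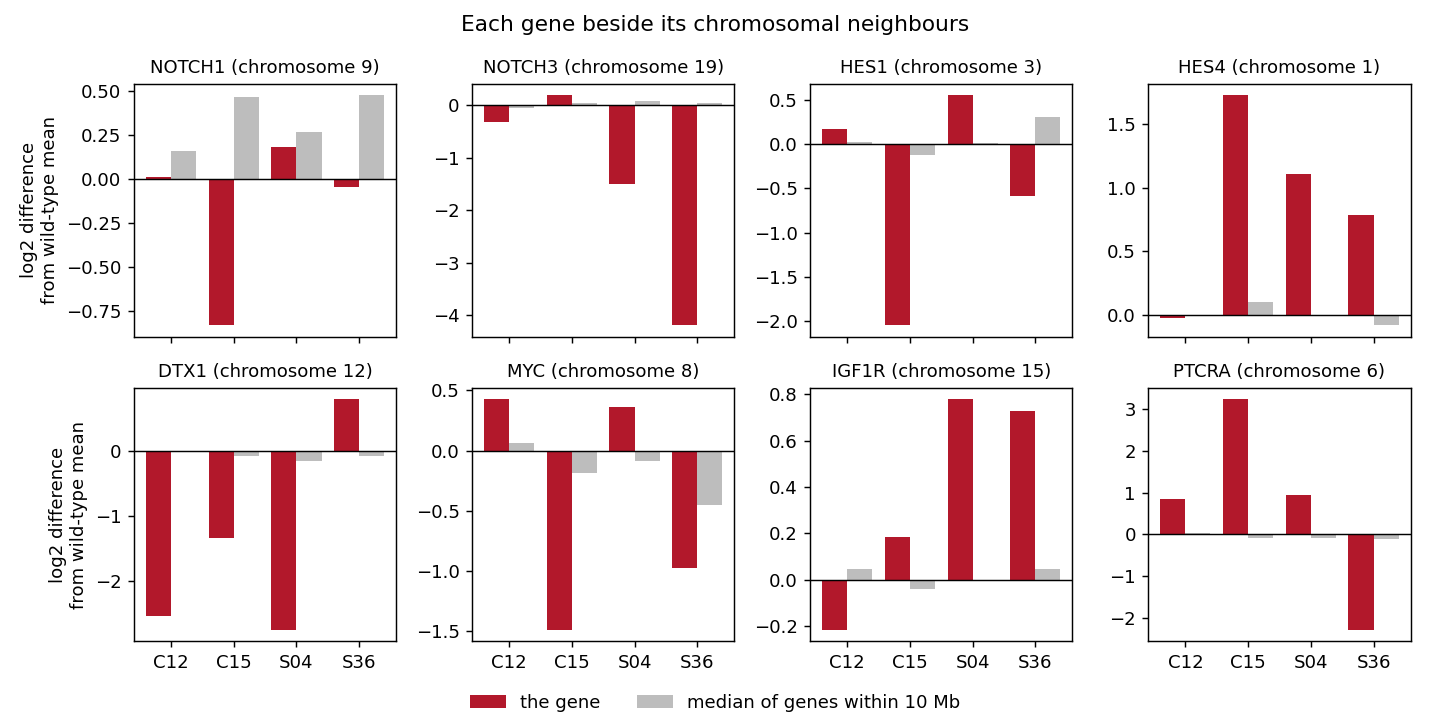
Log2 difference from the wild-type mean in each knockout clone for the gene (red) and the median of tested genes within 10 Mb (grey). The grey bars are raised in all knockout clones around NOTCH1, up to 0.47 in S36, and lowered around MYC in S36 (-0.45), and stay near 0 around NOTCH3, HES4, IGF1R and PTCRA.

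The other genes of the pathway, 114 in 10 lists, gave 92 tested genes, of which 0 passed in either direction between knockout and wild type. Groups did not overlap in 5 higher genes (PSENEN, MAML1, KAT2A, TLE1 and ZBTB17) and 6 lower genes (LFNG, APH1B, EP300, CIR1, GATA3 and GRB10) of the 92, beside 4.44% and 5.62% of all tested genes. MAML1 was kept by the low-count filter through the knockout clones, where it was higher. The median log2 fold change of the 92 was 0.011. Between C-named and S-named clones 0 of 92 passed by edgeR.

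Ligands and remaining receptors were mostly silent, with 2 of 9 genes tested. DLL1 and NOTCH4 had no counts, and DLL4, JAG2 and DLK1 had fewer than 10 over all clones. JAG1, a NOTCH ligand, was at 0.478 to 1.06 CPM in wild-type clones and 5.49 in S36 (72 counts), with a difference of 1.55 on the log2 scale (SE 0.71, edgeR adjusted p = 0.327). NOTCH2 was at -0.42 (SE 0.33, edgeR adjusted p = 0.574).

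Among the 5 tested genes of receptor glycosylation the median was -0.26. LFNG, a Fringe glycosyltransferase that tunes which ligands NOTCH answers to, was at 3.81 to 5.47 CPM in wild-type clones. It was at 2.66 CPM in C12, 2.42 in C15, then 1.75 in S04 and 0.915 in S36, so all knockout clones lay below all wild-type clones. LFNG differed by -1.25 on the log2 scale (SE 0.34, edgeR adjusted p = 0.146), and C15 and S36 held 6 and 12 counts. POGLUT1, which adds glucose to the receptor, was at 0.31.

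Of the 8 tested genes of receptor cleavage (median 0.021), the γ-secretase subunit gene APH1B was at 4.14 to 5.42 CPM in wild-type clones and 3.35, 1.21, 1.63 and 1.75 CPM in C12, C15, S04 and S36. The knockout clones lay below the wild-type clones (-1.14 on the log2 scale, SE 0.32, edgeR adjusted p = 0.152), with 3 counts in C15. PSENEN, another subunit gene, lay above in all knockout clones (0.44, SE 0.17, edgeR adjusted p = 0.247). Among 13 ubiquitination and trafficking genes (median 0.032), NUMBL was at -0.74 and DTX4 at -0.49.

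In the nuclear complex 12 of 12 genes were tested, with a median of -0.0096. RBPJ, chosen after its values were seen, was at 285.9 to 335.4 CPM in wild-type clones and 251.0 to 311.9 CPM in knockout clones (-0.14, SE 0.13, edgeR adjusted p = 0.643). The coactivator gene MAML1 was at 0.0443 to 0.266 CPM in wild-type clones, which is 1 to 5 counts, and at 0.616 to 1.21 CPM in knockout clones. The C15 value of 1.21 CPM rests on 3 counts, the floor of that library, and the remaining knockout values rest on 10 to 20 counts. MAML1 differed by 2.53 on the log2 scale (SE 0.54, edgeR adjusted p = 0.0919). The low-count filter kept MAML1 through its higher counts in knockout clones, so its p cannot be read as an independent test of that direction. KAT2A, an acetyltransferase gene, was at 0.41 (SE 0.14, edgeR adjusted p = 0.20).

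Of the 12 corepressor genes (median 0.0045), CIR1, which encodes a corepressor that binds RBPJ, was at 146.7 to 155.9 CPM in wild-type clones and 118.4, 87.9, 80.6 and 57.0 CPM in C12, C15, S04 and S36. The groups did not overlap (-0.81, SE 0.20, edgeR adjusted p = 0.116). CIR1 lies on chromosome 2, whose tested genes had a median of -0.35, -0.44, -0.36 and -0.23 in these clones. TLE1, a Groucho corepressor gene through which HES proteins act, was at 9.48 to 12.1 CPM in wild-type clones and 16.9, 16.9, 32.7 and 18.7 CPM in C12, C15, S04 and S36 (0.97, SE 0.24, edgeR adjusted p = 0.118). TLE1 lies on chromosome 9, with medians of 0.21, 0.39, 0.40 and 0.36. The part of these shifts in both results was not tested.

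Of 22 other reported NOTCH targets 16 were tested, with a median of 0.010, 8 above 0 and 8 below. HES5 had no counts. GATA3, a T-lineage factor gene, was at 128.0 to 137.5 CPM in wild-type and 94.5 to 124.3 CPM in knockout clones, without overlap (-0.32, SE 0.13, edgeR adjusted p = 0.284). TRIB2 was at -0.43 (SE 0.25, edgeR adjusted p = 0.443). It lies on chromosome 2, like CIR1, where tested genes had medians of -0.35, -0.44, -0.36 and -0.23 in C12, C15, S04 and S36. The part of that shift in the TRIB2 value was not tested. In the MYC network (11 of 11 tested, median 0.061) ZBTB17, a MYC-binding zinc finger gene, was at 0.44 without overlap (edgeR adjusted p = 0.208) and MYCL at -0.41.

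Among IGF1R partners 7 of 11 were tested, with a median of -0.33 and 6 of 7 below 0, against 6803 of 14243 tested genes. GRB10, an adaptor that binds the receptor, was at -0.52 without overlap (edgeR adjusted p = 0.292). IGFBP2, an IGF-binding protein gene, was at -0.81 (SE 0.40, edgeR adjusted p = 0.368). IGFBP2 also lies on chromosome 2, with medians of -0.35, -0.44, -0.36 and -0.23 in C12, C15, S04 and S36. The part of that shift in the IGFBP2 value was not tested. Among genes that act with the pre-T-cell receptor, 6 of 8 were tested, with a median of -0.00021, CD247 at 0.20 and LCK at 0.13.

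**Figure D5:**
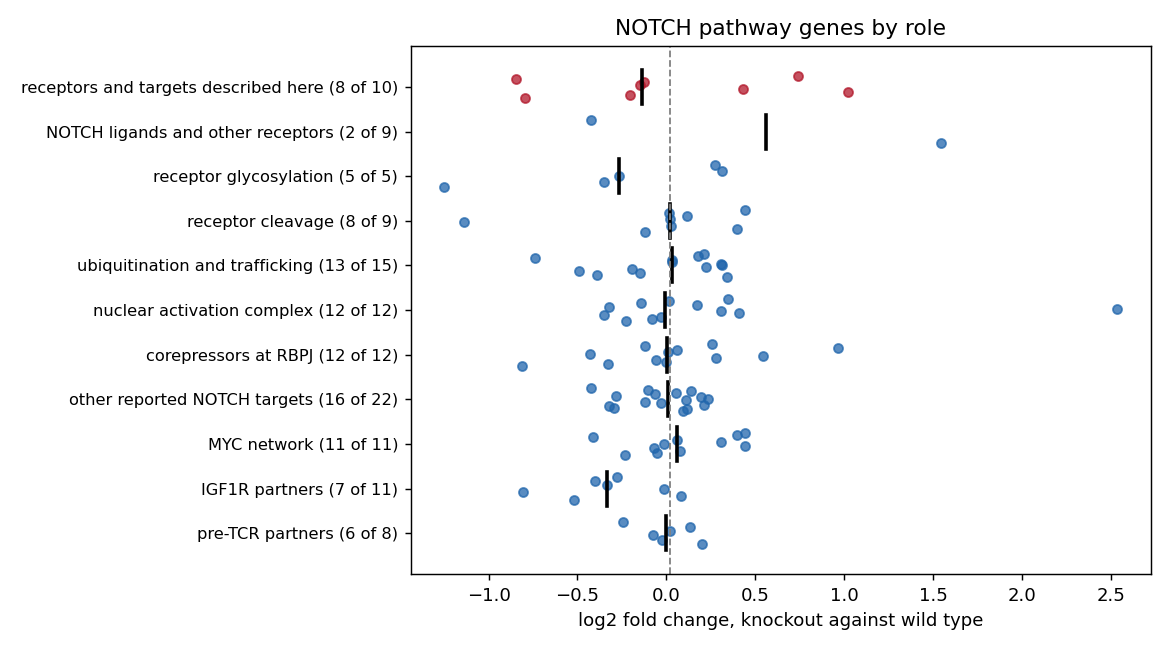
Log2 fold change of each tested gene, knockout against wild type, grouped by role in the pathway, with the number tested of the number listed. Black bars are list medians and the dashed line is the median of all tested genes (0.020). The list medians with 5 or more genes lie between -0.33 and 0.061, and MAML1 at 2.53 rests on few counts.

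Genes whose log2 CPM followed each member most closely over the 8 clones were named as a description, with Pearson r. They were HPF1 (0.991) and NT5C (0.982) for NOTCH1, OXA1L and CES2 (both 0.986) for NOTCH3, RPS27 (0.997) and EIF4A3 (0.994) for HES1, and VEZT (0.979) for HES4. For DTX1 they were BEND6 (0.963) and SLC5A6 (0.958), for MYC PSMA3 and NDUFC1 (both 0.991), for IGF1R TMEM14C (0.990), and for PTCRA CLMN (0.976) and ADCY6 (0.968). Only 2 genes were taken for each member, and none of these was another member. Between pairs of members, r ran from -0.761 (NOTCH3 and IGF1R) to 0.917 (HES1 and MYC). All points share the same 8 libraries, depth included. Each gene named as most alike was picked for its high r among tested genes with an established symbol.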

How the data were processed

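The authors deposited raw counts per gene symbol for 8 clones in a single table. The tools behind these counts, per the submitters' processing notes, were Subread, TopHat2, SAMtools and FastQC on hg38, with their roles, versions, annotation and strand use not given in the sources used here. With filterByExpr 14243 genes were kept, and TMM factors set the library sizes. The test was edgeR's two-sided quasi-likelihood test (edgeR 4.0.16 in R 4.3.3), adjusted after Benjamini and Hochberg across the 14243 genes, with a threshold of 0.05. For C-named against S-named clones, a 3-group fit was used. SEs given with edgeR values were derived as the absolute log2 fold change divided by the square root of the test's F statistic. Log2 CPM used a prior count of 2. For single values, all 70 assignments of clones to groups gave an exact two-sided permutation p (scipy 1.17.1). Alternatives were other factors, filters, DESeq2 1.42.0, limma-voom (limma 3.58.1), thinning to 2730285 counts, leaving out mitochondrial genes or a clone at a time, and C-named or S-named clones by themselves. The neighbour-corrected value was added after seeing the data. The tests were tried on simulated data. Positions, principal transcript lengths (the median over APPRIS principal transcripts) and overlaps came from GENCODE 29, and promoters from RefSeq. Clones of a group differed beyond sampling noise (chi-square per degree of freedom at least 13.8), so none was taken for a copy. Nothing in the labels says that clones were cultured or sequenced apart, so the spread behind each p-value is that among these samples and may be partly technical.

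The 10 genes and the lists were chosen with earlier results of these data known. All 10 are named, beside the 2 genes of each pathway list with the smallest p and the 2 genes most alike to each member, of which 1 for HES4 and 1 for IGF1R are not reported here. RBPJ, MYCN, LUNAR1, EP300, CD5, CD7 and the genes named for few or no counts were picked with values in view.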

Additional observations from a re-analysis of the deposited data

Results flagged for a closer look

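Among the wild-type clones, NOTCH3 in WT13 stood far from the other 3 clones, at a log2 CPM of 5.99, where WT10, WT28 and WT30 lay between 5.54 and 5.59. This was found in 1 of 16 groups of 4 clones examined, and chance gives about 1 in 20.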

How the results depend on the processing

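The count of all genes past the threshold between knockout and wild type was 45, and became 581 with no low-count filter, 521 by DESeq2, 94 by limma-voom, 0 in thinned libraries (787 at an unadjusted p under 0.05), 6 with C clones alone and 2211 with S clones alone; leaving out any clone moved it over 1.5 times, to 3 to 5 without a wild-type clone and, with C12, C15, S04 or S36 dropped, to 456, 114, 7 or 20. Of the 8 members 0 passed, against 1 by DESeq2, 3 with S clones alone and 0 to 1 when a clone was left out. With no filter 1 passed (HES4), where 581 of 31332 genes did. Between C and S clones 51 genes passed, against 14 with RLE factors, 20 with upper quartile factors, 762 with no filter, 14 with CPM of at least 1 in at least 4 clones, 651 by DESeq2, 89 by limma-voom and 8 in thinned libraries. Without a wild-type clone it was 0 by edgeR (1971 to 2095 at an unadjusted p under 0.05), and 749, 32, 148 or 198 with C12, C15, S04 or S36 dropped. Members passing there were 0, against 2 by DESeq2. With no filter 3 passed (DTX1, NOTCH3 and PTCRA), where 762 of 31332 genes did. Their SEs fell in that fit, from 1.06 to 0.46 for DTX1, 0.63 to 0.27 for NOTCH3 and 1.41 to 0.51 for PTCRA. Without a wild-type clone 0 members passed. With a knockout clone dropped, its letter keeps a lone clone, whose spread is taken from the other groups. The cause of these moves was not tested.

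Single members between knockout and wild type kept direction and side of the threshold in 128 of 144 alternative fits. Signs turned for NOTCH1 (0.048), HES1 (0.061) and PTCRA (-0.64) with S clones alone, IGF1R (-0.057) with C clones alone and MYC (0.24) in thinned libraries. Without a clone, fold changes ran from -0.23 to 0.034 for NOTCH1, -0.57 to 0.092 for HES1, -0.42 to 0.073 for MYC, -0.33 to 1.28 for PTCRA, -1.32 to -0.45 for NOTCH3, -2.56 to -0.42 for DTX1 and 0.28 (without S04) to 0.60 for IGF1R. For HES4 the fold change ran from 0.69 (without C15) to 1.25 (without C12). Between C and S clones 113 of 128 fits kept direction and side of the threshold. HES4 turned by limma-voom (-0.34), and without a clone differences ran from -3.08 to 0.60 for DTX1, -2.15 to 0.061 for HES1, -0.99 to 0.77 for HES4 and -1.36 to 0.94 for MYC. The C15 depth of 2730285 counts limits DTX1, MYC and PTCRA there. No paired analysis was possible because the labels give clones no shared replicate numbers.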
